A study of Mus musculus with 2 samples.

Results

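PO1 is a cluster of dividing cells that the study placed among the osteogenic cells of the embryonic mouse coronal suture. Its members were taken as the cells named PO1 in the deposited cell table, matched to the count matrices by barcode and library. They numbered 536 of 12165 labelled cells in 15 clusters, 173 of the 5335 in the E15.5 library and 363 of the 6830 in the E17.5 library. The markers set for the cluster were *Top2a*, *Esco2* and *Mki67*. The clusters nearest to it by name were PO2, the other proliferative cluster, with 35 and 76 cells, and OG1 to OG4, the osteogenic clusters without a proliferative name.

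The series holds 2 single-cell RNA libraries, both from wild-type C57/BL6 embryos, of the coronal suture, the strip of mesenchyme and bone fronts between the frontal and parietal bones, and it set out to catalogue the cell types found there. The E15.5 library came from 10 sutures dissociated with collagenase II and dispase, with dead cells then removed by a kit. The E17.5 library came from 16 sutures of 2 litters dissociated with collagenase IV and sorted by flow cytometry in 3 batches. Its cell barcodes carry 3 suffixes that the labels do not tie to a batch. With 1 library a stage there was no replicate and no test, cells of a library are not replicates, and every interval covers counting error only. Age cannot be told apart from dissociation, sorting, library or the set of genes counted. That set held 31053 genes in the E15.5 matrix and 27998 in the E17.5 matrix. Because the clusters were made from these same cells, the genes that set PO1 apart describe it and are no test of it.

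Cells copy their DNA in S phase and separate it in mitosis (M), with gaps called G1 and G2 before each. Genes for DNA synthesis, such as the subunits of the MCM helicase and the histones that package new DNA, peak around S phase, many of them under E2F factors, whereas genes for the spindle and for chromosome segregation peak in G2 and M. At the growing edges of the skull bones osteogenic precursors divide, and under the transcription factors RUNX2 and SP7 they become osteoblasts that lay down bone matrix.

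Nearly every PO1 cell carried at least 2 of the 3 markers. UMIs, which count captured transcript molecules, of at least 2 of the 3 genes were found in 170 of 173 cells from E15.5 and 359 of 363 from E17.5, against 6.47% of 4048 and 9.96% of 3405 cells outside the osteogenic clusters. All PO2 cells, 35 and 76, also had them. UMIs of all 3 genes were found in 136 and 291 PO1 cells, 78.6% and 80.2%, and in 18 and 47 PO2 cells. PO1 cells were deep, with a median of 11565 UMIs in the E15.5 library and 19957 in the E17.5 library against the 7572 and 13308 of OG1 to OG4. OG4 alone stood at 7351.5 and 19349, near PO1 in the E17.5 library. PO2 was deeper than PO1, at 14428 and 21847. Each cell was therefore also thinned to 3000 UMIs, which left out 2 PO1 cells. After thinning, 65.5% (57.9 to 72.6%) and 53.7% (48.4 to 58.9%) of PO1 cells had at least 2 markers (exact 95% interval), against 126 of 3943 and 115 of 3405 cells outside the osteogenic clusters. In PO2 it was 77.1% (59.9 to 89.6%) and 52.6% (40.8 to 64.2%), so that this count does not set PO1 apart from PO2.

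*Top2a* (chr11:98992943-99024189, minus strand, GRCm38), the topoisomerase that untangles sister chromatids, stood at 968 CPM (UMIs of the gene, scaled to 1000000 UMIs in the cluster) in PO1 at E15.5 and at 721 at E17.5. It exceeded the remaining labelled cells 10.8-fold (10.2 to 11.4) and 7.67-fold (7.40 to 7.94), and stood at 1012 and 723 in PO2. *Esco2* (chr14:65819038-65833994, minus strand), which acetylates cohesin during replication, stood at 169 and 110.4 CPM, which no other cluster reached in either library, 17.4-fold and 11.2-fold more than in the remaining labelled cells. *Mki67* (chr7:135689784-135716361, minus strand), which codes for the Ki-67 protein of cycling cells, stood at 298 and 195, below PO2 at 499.8 and 267. Of the 3 markers only *Esco2* was past 2-fold between PO1 and PO2 in both libraries, at 2.64 (1.82 to 3.94) and 2.71 (2.11 to 3.54) times its PO2 level. In the 3 barcode suffixes of E17.5 it was 15.9, 9.50 and 14.8 times its level in OG1 to OG4.

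**Figure D1:**
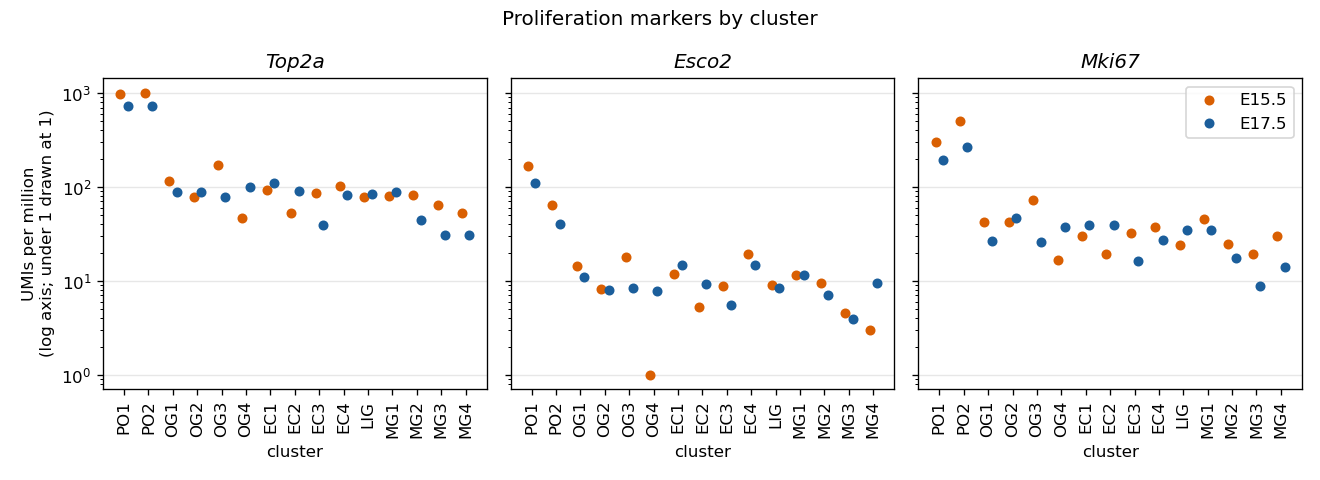
CPM of *Top2a*, *Esco2* and *Mki67* on a log axis in each of the 15 clusters, with a point for each library. *Top2a* and *Mki67* are high in both PO1 and PO2, whereas *Esco2* is highest in PO1, at 169 CPM at E15.5 and 110.4 at E17.5.

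PO1 made up 3.24% (2.78 to 3.75%) of the labelled cells in the E15.5 library and 5.31% (4.79 to 5.87%) in the E17.5 library. Of the osteogenic cells alone (OG1 to OG4, PO1 and PO2) it made up 13.4% (11.6 to 15.4%) of 1287 and 10.6% (9.59 to 11.7%) of 3425, so that the order of the stages turned with the denominator. Within E17.5, suffix 1 held 44 PO1 cells, 7.93% of its osteogenic cells, and suffixes 2 and 3 held 162 and 157, 11.1% and 11.2%. PO1 cells of the libraries shared 0 barcodes, and all labelled cells shared 42. Cells with a high doublet score made up 2.89% and 4.68% of PO1 and 3.99% and 4.89% of all labelled cells.

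Cells with division markers also lay outside PO1 and PO2. The study regressed the cell cycle before clustering. Of the 590 labelled cells with at least 2 markers at E15.5, PO1 held 28.8% (25.2 to 32.7%), and of the 1234 at E17.5 it held 29.1% (26.6 to 31.7%). OG1 to OG4 held 20.8% and 37.3% of them, and clusters outside the osteogenic ones 44.4% and 27.5%. After thinning PO1 held 36.0% of 311 and 40.8% of 478 such cells. In OG2 11.7% and 24.5% of cells had at least 2 markers, and 3.93% and 4.02% after thinning. OG1, OG3 and OG4 stood at 10.3%, 20.7% and 5.26% at E15.5 and at 11.3%, 12.5% and 19.4% at E17.5. After thinning they stood at 5.58%, 9.02% and 1.14% at E15.5 and at 3.56%, 4.10% and 6.26% at E17.5.

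Against all other labelled cells, 7763 genes had enough UMIs to compare, at least 20 expected in the smaller group in each library. A gene was called where it differed by at least 2-fold in the same direction in both libraries. Called higher in PO1 were 267 genes (3.44%), of which 150 stood in lists of cell cycle genes, and called lower were 311 (4.01%), of which 2 stood in those lists. Together the lists hold 295 of the 27514 genes shared by the libraries. Their share of the genes compared was not counted, here or in the comparisons below. The lists do not hold every gene of division. Of the 267, 131 had their highest level of the 15 clusters in PO1 in both libraries and 105 in PO2.

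The 10 genes furthest above the other labelled cells were *Hist1h1b*, *Hist1h2ap*, *Hist1h2ae*, *Hist1h1e*, *Esco2*, *Hist1h4d*, *Pbk*, *Top2a*, *Aurkb* and *Ska1*. *Hist1h1b*, a linker histone, stood at 826 and 253 CPM and was 38.0-fold and 19.5-fold higher. *Aurkb*, a mitotic kinase of the chromosomal passenger complex, stood at 161 and 204, and was 10.1-fold and 7.44-fold higher. *Ska1*, which helps kinetochores hold microtubules, was 14.2-fold and 7.10-fold higher. Many core histone genes are near-identical in sequence. Most transcripts of replication-dependent histone genes lack the poly(A) tail that this chemistry captures, so that the level of any 1 of them is uncertain.

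Among the 10 furthest below were *Luzp2*, *Ncam2*, *Bglap*, *Bglap2*, *Gata6*, *Krtdap*, *Nell1*, *Ly6a* and *Tnfrsf11b*. *Bglap*, which codes for osteocalcin of mature osteoblasts, had 7 UMIs over all PO1 cells of E15.5 and 6 over those of E17.5. *Ly6a*, which codes for the surface antigen SCA-1, stood at 28.9 and 18.7 CPM, and *Tnfrsf11b*, which codes for osteoprotegerin, a decoy receptor that restrains osteoclasts, at 0.490 and 2.06. Called lower than in the other labelled cells were 6 of 8 ectocranial, 5 of 9 meningeal, 2 of 3 endothelial and pericyte, 0 of 7 ligament, 0 of 7 chondrocyte and 0 of 8 immune markers with enough UMIs, and none was called higher.

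The summed markers of other cell types in PO1 lay near those of OG1 to OG4. The 9 ectocranial markers summed to 487 and 214 CPM, against 230.4 to 563 and 158 to 255 in OG1 to OG4 and 6774 and 10548 in the ectocranial cluster EC2. The 11 meningeal markers summed to 313 and 214, the 9 endothelial and pericyte markers to 55.8 and 61.9, and the 13 immune markers to 259 and 403. Red cell genes summed to 9440 at E15.5 and 492 at E17.5, against 9458 to 12507 and 492 to 553 in OG1 to OG4. No gene of these lists, or of the ligament and chondrocyte lists, was called between PO1 and OG1 to OG4.

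Against OG1 to OG4, 7607 genes could be compared. Called higher in PO1 were 286 (3.76%), of which 166 stood in the cell cycle lists, and 75 (0.986%) were called lower. The histone gene *Hist2h2ac* and *Aspm* were among those called higher that stood outside the lists. The genes furthest above were *Hist1h1b*, *Hist1h2ap*, *Hist1h1a*, *Esco2*, *Hist1h1e*, *Hist1h2ae*, *Hist2h2ac*, *Neil3*, *Top2a* and *Ndc80*. *Neil3*, a glycosylase that repairs DNA in replicating cells, stood at 68.6 and 58.5 CPM, 8.94-fold and 9.44-fold above OG1 to OG4. *Ndc80*, which couples kinetochores to microtubules, was 10.7-fold and 8.18-fold higher.

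Genes of division were higher in PO1 than in OG1 to OG4, nearly all of them in the mitotic groups and a part in others. Of those with enough UMIs, 32 of 33 spindle and cytokinesis genes were called higher, 26 of 27 kinetochore and checkpoint genes, 10 of 12 condensin and topoisomerase genes and 18 of 25 replication fork genes. So were 17 of 24 histone and chaperone genes, 13 of 20 cyclins and kinases, 10 of 14 repair genes, 8 of 19 replication licensing genes, 7 of 14 nucleotide supply genes, 5 of 15 cohesin genes and 4 of 12 cell cycle transcription factors. Called lower was 1 gene of these groups, the histone gene *Hist1h2bc*, named here after its values were seen, at 11.8 and 28.3 CPM against 102 and 119. The median log2 ratio of the spindle list was 2.50 and 2.18 and that of the licensing list 0.91 and 0.93, against 0.06 and 0.04 over all genes compared. Of cell cycle inhibitors 3 of 13 were called higher. *Cdkn1c*, which codes for the inhibitor p57, stood at 2022 and 1186 CPM in PO1, at 1989.8 and 1248 in OG1 to OG4, and at 5310.3 and 2408 in the other labelled cells, against which it was called lower.

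Outside division, genes of mature osteoblasts were lower in PO1 than in OG1 to OG4 as 1 group, in which OG4 stood highest. Their list summed to 217 and 851 CPM in PO1, 260 and 394 in OG1 and 220 and 675 in OG2. In OG3 it summed to 2420 and 1146 and in OG4 to 55011 and 20925. At E15.5 PO1 lay below OG1 and near OG2, and at E17.5 it lay above both. Against OG1 to OG4, 11 of 15 genes of that list were called lower. So were 3 of 3 OG4 markers, some of which the list shares, and 1 of 1 OG3 marker. Of receptors and ligands 1 of 14 was called lower, and of osteogenic factors 1 of 13. None of 15 ribosome biogenesis, 17 glycolysis and respiration and 20 early matrix genes was called. Early matrix genes still lay lower than in that group, with 3 and 1 of the 20 above their level in OG1 to OG4. Their median log2 ratio was −0.61 and −0.52, against 0.06 and 0.04 over all genes compared. These 20 genes summed to 22349 and 27589.5 CPM in PO1, 18054 and 33041 in OG1 and 24413 and 27333 in OG2. In OG3 they summed to 24169 and 41026 and in OG4 to 138249 and 60219.5. By this sum PO1 lay above OG1 at E15.5 and above OG2 at E17.5, and below the other OG clusters. None of 15 dissociation response genes was called either, although their sum in PO1 at E15.5, 9544 CPM, was the highest of the 15 clusters, against 4994 to 7927 in OG1 to OG4. At E17.5 it was 5647, against 4177 to 6315.

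The genes furthest below OG1 to OG4 were *Bglap*, *Bglap2*, *Dmp1*, *Lipi*, *Col22a1*, *Phex*, *Ibsp*, *Spp1*, *Frzb* and *Mamdc2*. *Spp1*, which codes for osteopontin of bone matrix, stood at 61.2 and 52.3 CPM in PO1 against 1003 and 509.9 in OG1 to OG4. *Dmp1*, a matrix protein of late osteoblasts and osteocytes, had 8 UMIs over all PO1 cells of E15.5 and 6 over those of E17.5. *Ibsp*, bone sialoprotein, stood at 38.7 and 335 CPM in PO1, at 91.4 and 154 in OG2 and at 41200 and 13640 in OG4.

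**Figure D2:**
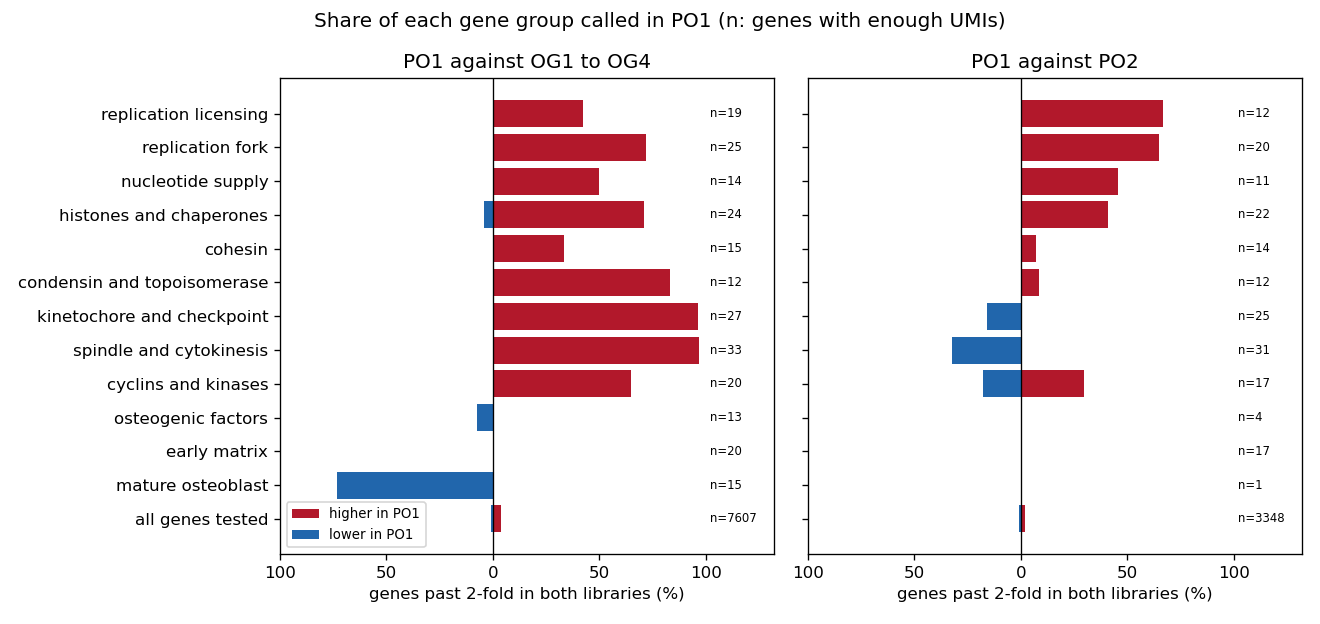
Share of each gene group called at least 2-fold higher (right of 0) or lower (left of 0) in PO1 in both libraries, in percent of its genes with enough UMIs, whose number stands at the right. Against OG1 to OG4 the division groups lie to the right (32 of 33 spindle genes), and against PO2 the replication groups lie to the right and the spindle and kinetochore groups to the left.

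PO1 differed from PO2 mainly in cell cycle genes, with replication genes higher in PO1 and mitotic genes higher in PO2. Of 3348 genes that could be compared, 58 (1.73%) were called higher in PO1 and 37 (1.11%) lower, and 46 of the 58 and 22 of the 37 stood in the cell cycle lists. Called higher in PO1 were 8 of 12 replication licensing genes, 13 of 20 replication fork genes, 5 of 11 nucleotide supply genes and 9 of 22 histone and chaperone genes, and 0 of each were lower. Called lower were 10 of 31 spindle genes and 4 of 25 kinetochore genes, and 0 were higher. Cyclins and kinases split, with 5 of 17 higher and 3 lower. Of 17 early matrix genes and 4 osteogenic factors compared, none was called.

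The 10 genes furthest above PO2 were *Hist1h1b*, *Hist1h2ap*, *Hist2h2ac*, *Hist1h2ae*, *Ccne2*, *Hist1h1e*, *Chaf1b*, *Hist1h1a*, *Ccne1* and *Hist1h4d*. *Hist1h1b* was 36.4-fold (20.3 to 73.0) and 27.3-fold (16.5 to 48.9) above PO2. *Ccne2*, cyclin E2, which drives entry into S phase, stood at 83.7 and 60.2 CPM in PO1 and at 4.13 and 3.09 in PO2. *Chaf1b*, part of a chaperone that loads histones on new DNA, stood at 53.4 and 59.7 in PO1 and was 12.9-fold and 13.8-fold higher. *Pcna*, the sliding clamp of the replication fork, was 7.04-fold (4.15 to 13.0) and 3.73-fold (2.90 to 4.87) higher.

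The 10 furthest below PO2 were *Cenpf*, *Cdc20*, *Cenpa*, *Arl6ip1*, *Cdkn3*, *Ccnb1*, *Tuba1c*, *Aspm*, *Ube2c* and *Knstrn*. *Ccnb1*, cyclin B1, which drives entry into mitosis, stood at 218 and 156 CPM in PO1 and at 892 and 848 in PO2, a ratio of 0.24 (0.21 to 0.28) and 0.18 (0.17 to 0.20). *Cdc20*, which activates the anaphase-promoting complex, stood at 168 and 167 in PO1 and at 791 and 904 in PO2. *Cenpf*, a kinetochore protein, stood at 275 and 169 in PO1 and at 1392 and 849 in PO2. PO1 was still above OG1 to OG4 for these genes, by 6.18-fold and 2.74-fold for *Ccnb1* and 3.49-fold and 2.32-fold for *Cdc20*. In all, 28 genes were called both higher in PO1 than in OG1 to OG4 and lower than in PO2.

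**Figure D3:**
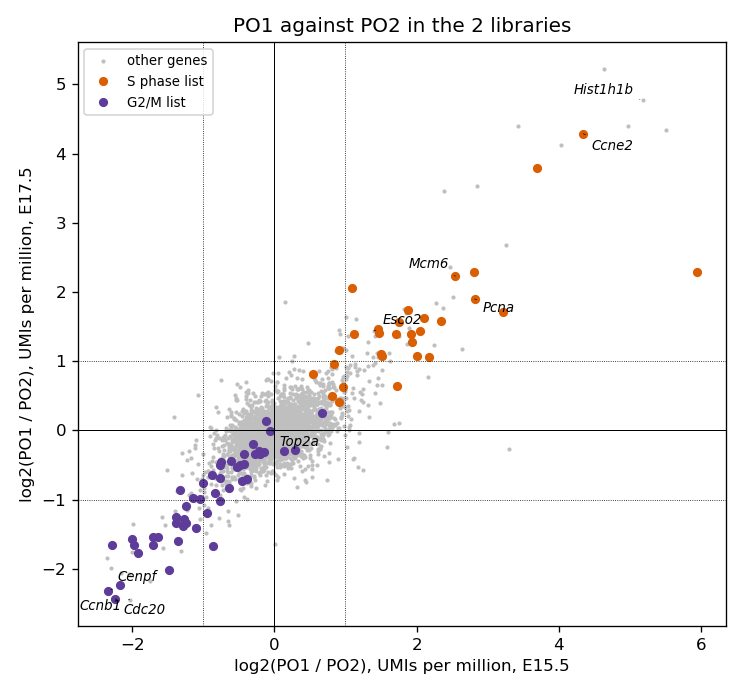
Log2 ratio of PO1 to PO2 in CPM at E15.5 (horizontal) and E17.5 (vertical), a point for each of the 3348 genes compared, with the S phase list in orange, the G2/M list in purple and dotted lines at 2-fold. Of the S phase list 23 of 30 genes lie past 2-fold at the upper right, and of the G2/M list 19 of 49 at the lower left.

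The promoters of the genes on either side differed in the letters they hold. RefSeq windows from 250 bases before to 50 after each start (GRCm38.p6) were searched on both strands for the E2F letters TTTGGCGC, TTTCGCGC, TTTGCCGC and TTTCCCGC, for the CHR letters TTTGAA and TTCGAA, known from promoters of mitotic genes, and for CCAAT. Genes with 1 window were used, 41 of the 58 genes higher in PO1 and 30 of the 37 higher in PO2. The E2F letters were in 14 of the 41 windows (34.1%) and in 0 of the 30, against 5.68% of 2234 genes compared and 2.32% of 22862 promoters. The CHR letters were in 6 of the 41 (14.6%) and 19 of the 30 (63.3%), against 15.3% of the genes compared and 19.8% of all promoters. CCAAT was in 30 (73.2%) and 27 (90.0%), against 42.0% and 38.2%. With histone genes left out, 14 of 34 windows higher in PO1 held E2F letters.

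The 3 genes furthest above PO2 whose window from 150 bases before to 30 after the start holds E2F letters were *Hells*, *Mcm6* and *Mcm3*, and the 3 furthest below with CHR letters were *Cenpf*, *Cdc20* and *Cenpa*. They are shown 5′ to 3′ along the gene so that the letters can be seen in place, with capitals marking each match to the E2F, CHR and CCAAT letters on either strand. They were chosen after the values were seen and for holding the letters, which describe the window and are not binding sites.
*Hells*, chr19:38930840-38931019, plus strand: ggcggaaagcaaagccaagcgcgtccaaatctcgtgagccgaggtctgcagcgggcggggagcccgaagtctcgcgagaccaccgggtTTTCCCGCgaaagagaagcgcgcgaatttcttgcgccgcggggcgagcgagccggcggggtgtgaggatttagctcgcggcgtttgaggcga
*Mcm6*, chr1:128359676-128359855, minus strand: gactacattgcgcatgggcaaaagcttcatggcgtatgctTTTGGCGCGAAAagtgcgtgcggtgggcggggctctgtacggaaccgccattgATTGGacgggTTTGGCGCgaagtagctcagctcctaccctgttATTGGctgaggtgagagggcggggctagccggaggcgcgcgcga
*Mcm3*, chr1:20820283-20820462, minus strand: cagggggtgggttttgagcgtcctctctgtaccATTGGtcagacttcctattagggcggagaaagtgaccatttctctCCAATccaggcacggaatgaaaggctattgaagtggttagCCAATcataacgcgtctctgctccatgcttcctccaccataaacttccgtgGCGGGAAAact
*Cenpf*, chr1:189688057-189688236, minus strand: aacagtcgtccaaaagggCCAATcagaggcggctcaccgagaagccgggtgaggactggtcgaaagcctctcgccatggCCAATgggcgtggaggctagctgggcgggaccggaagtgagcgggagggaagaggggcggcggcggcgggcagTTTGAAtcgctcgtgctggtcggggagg
*Cdc20*, chr4:118437314-118437493, minus strand: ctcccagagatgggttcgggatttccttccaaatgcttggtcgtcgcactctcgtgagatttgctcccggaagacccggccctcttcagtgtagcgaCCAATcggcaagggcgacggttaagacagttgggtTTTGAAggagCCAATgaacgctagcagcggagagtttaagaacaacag
*Cenpa*, chr5:30666736-30666915, plus strand: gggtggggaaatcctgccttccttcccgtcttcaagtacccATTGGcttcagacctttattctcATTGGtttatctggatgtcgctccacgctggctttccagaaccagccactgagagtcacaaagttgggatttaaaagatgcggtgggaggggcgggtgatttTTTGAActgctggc
*Hells*, a chromatin remodeller, holds 1 E2F match here, *Mcm6*, a subunit of the replicative helicase, 3 of which some overlap, and *Mcm3*, another subunit, 1. *Mcm6* was 5.83-fold (3.12 to 12.3) and 4.69-fold (3.39 to 6.68) above PO2 and *Mcm3* 5.72-fold (2.96 to 12.7) and 3.82-fold (2.69 to 5.61). *Cenpf*, *Cdc20* and *Cenpa*, the centromeric histone, each hold 1 CHR and 2 CCAAT matches, and the ratio of PO1 to PO2 was 0.20 and 0.20 for *Cenpf*, 0.21 and 0.19 for *Cdc20* and 0.22 and 0.21 for *Cenpa*.

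The deposited phase calls placed 66 PO1 cells in S and 107 in G2/M at E15.5, and 113 in S, 248 in G2/M and 2 in G1 at E17.5. The share called S was 38.2% (30.9 to 45.8%) and 31.1% (26.4 to 36.2%). All 35 and 76 PO2 cells were called G2/M, whereas in OG2 46.3% and 33.7% were called G1. The calls divide a range. The median S score was 0.43 and 0.38 in PO1 and −0.01 and 0.01 in PO2, and the median G2/M score 0.58 and 0.60 in PO1 and 1.13 and 1.09 in PO2. Both scores were above 0 in 170 of 173 and 358 of 363 PO1 cells, and lay within 0.1 of each other in 23 and 55.

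**Figure D4:**
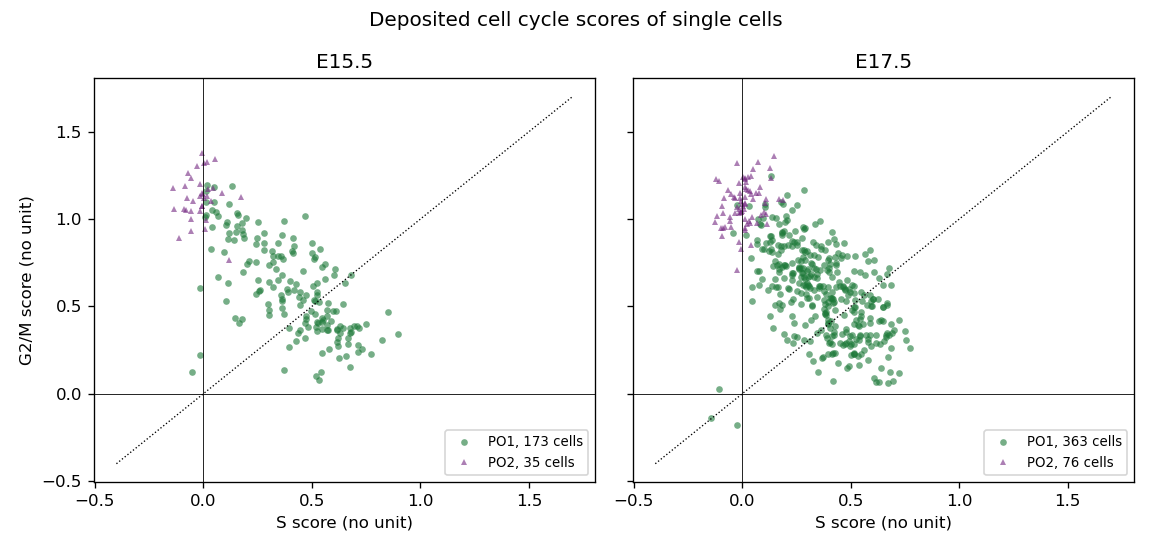
S score against G2/M score of each PO1 (circles) and PO2 (triangles) cell as deposited, without unit, with the dotted line where both are equal. PO1 cells form a band from high S scores to high G2/M scores that ends beside PO2, whose median S score is −0.01 at E15.5 and 0.01 at E17.5.

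Within PO1, cells called G2/M were set against cells called S over 4407 genes. Higher in the G2/M cells in both libraries were 36 genes (0.817%) and higher in the S cells 11 (0.25%), a description, since the calls used some of these genes. Of spindle genes 15 of 33 were higher in G2/M cells, and of replication licensing genes 4 of 16 in S cells. *Cenpa* stood at 34.5 and 48.1 CPM in S cells and at 263 and 253 in G2/M cells. *Chaf1b* stood at 112 and 101 in S cells and at 21.3 and 40.9 in G2/M cells. None of 5 osteogenic factors and 17 early matrix genes compared was called.

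The coronal synostosis list held 7 genes, a part of the set the study scored, that its text names together with clusters of these same samples, so that their levels here are no independent evidence. *Esco2* and *Cdc45*, a part of the replicative helicase (chr16:18780447-18811987, minus strand, GRCm38), were called higher in PO1 than in OG1 to OG4. *Cdc45* stood at 38.7 and 40.3 CPM in PO1, 2.72-fold (2.03 to 3.62) and 4.15-fold (3.56 to 4.83) higher. The other 5 lay within 1.5-fold of OG1 to OG4 in both libraries. *Twist1*, a transcription factor mutated in Saethre-Chotzen syndrome, stood at 64.6 and 111 in PO1 against 47.4 and 84.8, and *Tcf12*, its dimerization partner, at 127 and 79.8 against 105 and 76.4. *Fgfr1* stood at 219.9 and 130.1, *Fgfr2* at 31.8 and 108 and *Zeb2* at 223 and 138 in PO1.

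With the listed cell cycle genes set aside, PO1 was most like OG2 in both libraries, by little over PO2 at E17.5. The lists do not hold every gene of division. Of OG1 to OG4, OG2 had the largest share of cells called G2/M at E17.5, 39.1%. Whether the likeness still reflects the cell cycle was not tested. Across 4687 genes, with 295 cell cycle genes left out, the Spearman correlation of levels with PO1 was 0.955 and 0.963 for OG2, 0.937 and 0.962 for PO2, 0.917 and 0.940 for OG1, 0.883 and 0.943 for OG3 and 0.695 and 0.875 for OG4. Outside the osteogenic clusters EC1 came nearest, at 0.828 and 0.884. With genes at 100 or more CPM PO2 came first, at 0.969 and 0.976. The points of a library share its handling and free RNA, clusters differ in depth, and genes are not independent, so that these values are a description.

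Single PO1 cells were also set beside the summed profiles of the 13 clusters other than PO1 and PO2, a measure chosen after the data were seen. At E15.5, 139 of 173 PO1 cells were nearest to OG2, 18 to OG1, 4 to OG3 and 0 to OG4, 161 in all. At E17.5, 184 of 363 were nearest to OG2, 111 to OG1, 56 to OG3 and 5 to OG4, 356 in all. OG2 took 80.3% (73.6 to 86.0%) and 50.7% (45.4 to 55.9%) of PO1 cells. The same rule returned 87.1% and 75.3% of OG2 cells to OG2, and 50.6% and 79.6% of OG1 cells to OG1.

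*Lef1* (chr3:131110471-131224356, plus strand, GRCm38), a partner of beta-catenin in Wnt signalling and a marker of OG2, stood at 56.8 (46.9 to 68.1) and 10.5 (8.24 to 13.1) CPM in PO1, beside 73.4 and 11.6 in OG2 and 4.42 and 2.48 in OG4. *Inhba*, which codes for an activin A subunit and also marks OG2, stood at 38.2 and 17.3 in PO1 and 79.0 and 14.1 in OG2. *Erg*, a marker of OG1, stood at 1.47 and 32.9 in PO1 and 6.76 and 86.3 in OG1. *Mmp13*, a collagenase that marks OG3, stood at 0.490 and 13.5 in PO1 and 321 and 185 in OG3.

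*Sp7*, *Alpl*, *Dlx5* and *Runx2*, which mark the osteoblast lineage, stood higher in PO1 than in the remaining labelled cells of the E17.5 library, and none of the 4 did so in the E15.5 library. *Sp7* (chr15:102356606-102367182, minus strand, GRCm38) had 4 UMIs in PO1 at E15.5 and 1308 at E17.5, 1.96 (0.534 to 5.02) and 179.9 (170.3 to 189.9) CPM. In the 3 barcode suffixes of E17.5 it stood at 273, 142 and 189. At E15.5 the clusters outside the osteogenic ones ran from 0.543 in EC2 to 12.0 in MG4, and OG3 and OG4 stood at 58.7 and 204. *Alpl*, the phosphatase of mineralizing cells, stood at 6.86 (3.75 to 11.5) and 288 (275 to 300.2) in PO1. *Dlx5*, a homeobox factor upstream of osteoblast genes, stood at 6.86 (3.75 to 11.5) and 153 (144 to 163). *Runx2* (chr17:44495987-44814797, minus strand, GRCm38) stood at 21.5 (15.7 to 28.9) and 103 (96.0 to 111). The other labelled cells of E15.5 stood at 12.8 for *Sp7* and 60.3 for *Alpl*, above the intervals of PO1, and at 10.4 for *Dlx5* and 28.8 for *Runx2*, within them. At E17.5 they stood at 111, 249.6, 100.4 and 82.9, below the PO1 intervals.

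At E15.5 some other osteogenic factors stood higher in PO1 than in the remaining labelled cells, and others lower. Of the 12 factors with enough UMIs, 5 exceeded the remaining cells in the E15.5 library and 9 in the E17.5 library. None was past 2-fold in both libraries. Over all 7763 genes compared, 3970 and 3878 exceeded the remaining cells. The median log2 ratio of the 12 was −0.51 and 0.29, against 0.02 and −0.0004 over all genes compared. The 5 of E15.5, named after their values were seen, were *Lef1*, *Runx1*, *Twist1*, *Cbfb* and, with a ratio whose interval takes in 1 (0.971 to 1.16), *Atf4*. *Runx1*, a relative of *Runx2*, stood at 104 CPM against 32.5 and *Cbfb*, the binding partner of RUNX factors, at 117 against 86.7. *Lef1* stood at 56.8 against 12.4. The list of 18 summed to 675 and 1326 CPM in PO1 against 532 and 1011.

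OG2 was low at E15.5 too. There *Sp7* stood at 4.14 and 172 CPM at the stages, *Alpl* at 9.02 and 286, *Dlx5* at 3.41 and 148 and *Runx2* at 30.7 and 116. UMIs of at least 2 of the 4 genes, a count chosen after the data were seen, were found in 12 of 173 PO1 cells from E15.5 and 336 of 363 from E17.5. After thinning the share was 0.585% (0.0148 to 3.22%) and 41.6% (36.5 to 46.9%), against 1.03% and 49.4% in OG2 and 36.8% and 66.8% in OG3. The 9 clusters outside the osteogenic ones ran from 0.757% in EC2 to 25.1% in MG2 at E15.5 before thinning, a range that takes in the 6.94% of PO1, and after thinning up to 4.09% in EC4. In the E17.5 library they ran from 12.5% in EC2 to 51.9% in EC1 before thinning and from 1.32% in EC2 to 29.2% in EC1 after it, below PO1 at 92.6% before thinning. Median depth was 9732 and 12602 UMIs in EC2 and 9143 and 6767 in EC1.

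**Figure D5:**
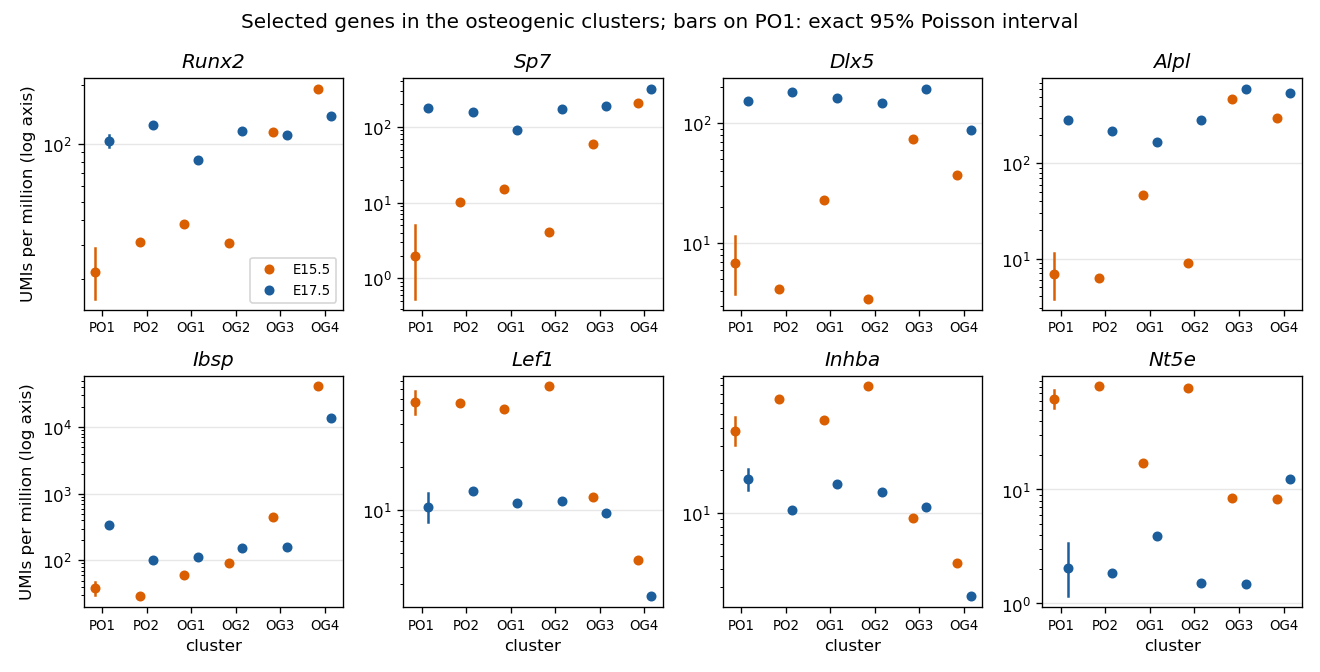
CPM of 8 genes on log axes in the osteogenic clusters, a point for each library, with the exact 95% Poisson interval on PO1. In PO1, going from E15.5 to E17.5, *Sp7* goes from 1.96 to 179.9 and *Lef1* from 56.8 to 10.5.

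Between the libraries, the change of each gene in PO1 was divided by its change in OG1 to OG4, over 7668 genes, and 172 genes (2.24%) were at least 2-fold higher at E17.5 on this scale and 46 (0.6%) lower. The balance depends on the cells used. With suffix 1 of E17.5 alone 83 were higher and 118 lower, of 5214 genes compared. With OG2 alone as the reference 130 were higher and 106 lower, of which 60 and 13 were among those called against OG1 to OG4. Relative to OG1 to OG4, higher were 8 of 17 osteogenic factors, among them *Runx2*, *Sp7*, *Dlx5*, *Dlx6*, *Msx1*, *Alx4* and *Six2*, 7 of 20 early matrix genes and 6 of 9 mature osteoblast genes. The rise was not confined to osteogenic cells. The 18 osteogenic factors summed to 457 and 950 CPM in EC1, 470 and 916 in MG1 and 544 and 840 in LIG. Of the clusters outside the osteogenic ones only EC2 fell, from 373 to 360. None of 23 replication licensing, 28 replication fork, 29 kinetochore and 38 spindle genes was called in either direction. With OG2 alone as the reference, 3 osteogenic factors, 0 early matrix and 2 mature osteoblast genes were higher, and 16 spindle genes were lower.

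The 5 genes with the largest rise on this scale were *Smpd3*, *Panx3*, *Omd*, *Sp7* and *Sgms2*. *Smpd3*, a sphingomyelinase needed for bone mineralization, had 1 UMI over all PO1 cells of E15.5 and 617 over those of E17.5, while OG1 to OG4 stood at 322 and 302 CPM. *Panx3*, a channel of osteoblasts, had 2 UMIs over all PO1 cells of E15.5 and 507 over those of E17.5, and *Omd*, osteomodulin of bone matrix, had 2 UMIs over all PO1 cells of E15.5 and 336 over those of E17.5. Among the 5 with the largest fall were *Gm12216*, *Nt5e*, *Ptx3* and *Cldn10*. *Nt5e* (CD73, which makes adenosine) stood at 62.7 and 2.06 CPM in PO1 and at 77.5 and 1.51 in OG2.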

How the data were processed

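Single-cell RNA was measured in 1 library for each stage on the 10x 3′ v2 chemistry. The authors aligned reads to mm10 with Cell Ranger (the E15.5 matrix header names version 3.1.0, not the version in the study's methods) and deposited UMI counts per gene and barcode. They also deposited a cell table, made with Seurat 3.2.0, with cluster names, phase calls and S and G2/M scores. They kept cells by limits on UMIs, genes, mitochondrial and haemoglobin counts, regressed the cell cycle and integrated the stages before clustering. Their table of integrated values was not used here. Of 5340 E15.5 cells in the table, 5 were not matched. UMI totals in the deposited E15.5 matrix differ from those in the table (PO1 median 11565 and 15193).

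UMIs were summed per cluster and library, over 27514 genes shared by identifier, and scaled to 1000000 (CPM), with exact Poisson intervals for levels, exact conditional intervals for ratios and exact binomial (Clopper-Pearson) intervals for shares, all at 95%. PO1 summed to 2042161 and 7270633 UMIs. The members, gene lists and rules were chosen with earlier results of these data known. Genes named are the 10 called genes with the largest fold in each direction of a comparison, taking the smaller fold of the libraries, the 5 between stages, and genes the study names for these clusters. Roles of other genes follow the lists. Some genes that these rules name are not reported here. Doublets were scored per barcode suffix with Scrublet in scanpy 1.11.5 (94th percentile), and kept. At E17.5 its own threshold marked 41 of 8767 cells. Scripts ran in Python 3.11.15 with numpy 2.4.6, scipy 1.17.1 and pandas 2.3.3, and were tested on simulated data. Alternatives were another fold limit, UMI minimum, thinning, doublets left out, each suffix, denominators, rescored phases and other settings of likeness.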

Additional observations from a re-analysis of the deposited data

Results flagged for a closer look

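Of 7607 genes compared between PO1 and OG1 to OG4, 5 lay at least 1.5-fold on opposite sides of OG1 to OG4 in the libraries, with intervals that leave out 1 in both and all 3 barcode suffixes of E17.5 on the same side. None did so past 2-fold in both. With 1 library a stage the difference between stages was not tested, and the intervals cover counting error only. The mixture of clusters in OG1 to OG4 also differs between the libraries. *Wnt5a*, a ligand of noncanonical Wnt signalling, stood in PO1 at a ratio to OG1 to OG4 of 1.55 (1.26 to 1.91) at E15.5 and 0.640 (0.432 to 0.918) at E17.5, from 61.2 and 4.54 CPM in PO1. *Nt5e* stood at 1.52 (1.23 to 1.86) at E15.5 and 0.429 (0.236 to 0.724) at E17.5. *Cldn10*, a claudin of tight junctions, stood at 1.65 (1.37 to 1.97) at E15.5 and 0.539 (0.363 to 0.776) at E17.5. The predicted gene *Gm12216* stood at 1.87 (1.67 to 2.08) at E15.5 and 0.361 (0.231 to 0.541) at E17.5. These 4 were above OG1 to OG4 at E15.5 and below at E17.5. *Sfn*, which codes for 14-3-3 sigma, an inhibitor of entry into mitosis, ran the other way, at 0.143 (0.0384 to 0.375) at E15.5 and 1.99 (1.64 to 2.40) at E17.5, with 4 UMIs in PO1 at E15.5 and 149 at E17.5. At E15.5 OG2 stood at 57.8 CPM for *Wnt5a*, 77.5 for *Nt5e* and 98.2 for *Cldn10*, beside 61.2, 62.7 and 82.8 in PO1. At E17.5 it stood at 6.18, 1.51 and 9.96, beside 4.54, 2.06 and 4.40 in PO1. For *Gm12216* OG2 stood at 163 and 2.14, beside 229 and 3.44 in PO1. For *Sfn* it stood at 8.78 and 12.1, beside 1.96 and 20.5 in PO1. Against OG2 alone *Wnt5a* and *Sfn* kept their sides, and *Nt5e*, *Cldn10* and *Gm12216* did not.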

How the results depend on the processing

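Of 107 alternative values, 60 stayed within 1.5 times the reported count, within the reported interval or at the same cluster, and 47 did not. Whether a direction turned was not scored. The counts of genes depend on the limit and on how many genes have enough UMIs. At 3-fold the counts were 125 higher and 140 lower against the other labelled cells, 138 and 37 against OG1 to OG4, and 24 and 14 against PO2. At 50 expected UMIs they were 130 higher and 199 lower against the other labelled cells, 178 and 41 against OG1 to OG4, and 22 and 21 against PO2. With each cell thinned they were 85 higher and 165 lower against the other labelled cells, 110 and 23 against OG1 to OG4, and 11 and 11 against PO2. With E17.5 barcode suffix 1 alone, which holds 44 PO1 cells, they were 153 higher and 205 lower against the other labelled cells, 145 and 43 against OG1 to OG4, and 18 and 23 against PO2. The last 3 settings also compare fewer genes. Between the libraries, in alternatives chosen after seeing the data, 3-fold gave 57 higher and 5 lower, suffix 1 gave 83 and 118, suffix 3 gave 75 lower and OG2 as the reference 106 lower, and the cause was not tested. PO1 was 13.4% and 10.6% of osteogenic cells, and 3.57% of labelled cells in suffix 1. The ratio of depth was 1.40 and 1.38 by means and 1.41 in suffix 2. Phases scored anew from the counts put 30.6% of PO1 in S and 69.4% in G2/M at E15.5, and the share called G1 at E17.5 was 2.27% in suffix 1 and 0% of the 162 cells in suffix 2. PO1 held 36.0% and 40.8% of cells with at least 2 markers after thinning, and 44.3% and 46.6% of cells with all 3. PO2 became the cluster most like PO1 at 100 or more CPM (0.969 and 0.976) and, with cell cycle genes kept, at E17.5 (0.952). No paired analysis was possible because each stage has 1 library and no result comes from a test.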
